A study of Rubus idaeus with 6 samples.

Results

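The gene models described here encode an antenna protein and a core subunit of photosystem I, a small subunit of Rubisco, a glycolate oxidase and a phosphoenolpyruvate carboxylase. By the Arabidopsis orthologues that the study assigned, they are LHCA2 (Ro04_G07134), PSAF (Ro03_G10895), RBCS1A (Ro04_G02684), GOX1 (Ro03_G33049) and PEPC4 (Ro04_G02608). They are 5 of the 19951 gene models in the deposited table, and were selected on their difference between the cultivars in these same libraries. Their differences are therefore given as a description, without a test.

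RNA was sequenced from the axillary buds that sat at nodes 5 to 10, counted down from the apex, of field-grown raspberry plants, in 3 libraries of ‘Heritage’, an annual-fruiting (AF) cultivar, and 3 of ‘Wakefield’, a biennial-fruiting (BF) cultivar. All buds were collected on November 5, in late spring of the southern hemisphere. Each fruiting habit was thus represented by a single cultivar at a single time, so habit and cultivar cannot be told apart, and the replicates, which the study describes as biological, measure the spread within a cultivar. The values are normalized counts, that is, reads per gene model divided by a size factor per library, with no correction for gene length. They rest on 7345603 to 14977596 reads per library, with ‘Wakefield’ library 60 the shallowest.

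Photosystem I uses light gathered by its LHCA antenna proteins to pass electrons to ferredoxin, and PSAF is the subunit at which plastocyanin delivers electrons in Arabidopsis. Rubisco then fixes CO2 with its large and small subunits. When Rubisco takes up oxygen instead, photorespiration recycles the 2-phosphoglycolate that is formed, and glycolate oxidase carries out the peroxisomal step from glycolate to glyoxylate. Phosphoenolpyruvate carboxylase makes oxaloacetate from phosphoenolpyruvate and so feeds organic acid metabolism. PEPC4 of Arabidopsis is the bacterial-type form of the enzyme. Green buds carry out some photosynthesis of their own, and young leaf primordia lie inside them. In whole buds, fewer cells of a type and less RNA per cell cannot be told apart.

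LHCA2 lies at 6635850 bp on linkage group (LG) 4 of the R. occidentalis (black raspberry) genome whose gene models were used. Its normalized counts were 4674, 4915 and 3907 in ‘Wakefield’ libraries 59, 60 and 61, and 1368, 1488 and 1872 in ‘Heritage’ libraries 62, 63 and 64. Every ‘Heritage’ library lay below every ‘Wakefield’ library. With means of 4498 ± 526 and 1576 ± 264 (SD, n = 3 each), ‘Wakefield’ was 2.85-fold above ‘Heritage’. On the scale of log2(normalized count + 1), ‘Heritage’ minus ‘Wakefield’ was -1.52 (standard error 0.16). Standard errors here and below are the moderated ones from limma, which draw each gene's variance toward that of all gene models tested. For a gene with an unusually wide spread they are smaller than its own libraries alone would give.

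PSAF lies at 37193201 bp on LG3. Normalized counts of PSAF were 2092, 2109 and 1679 in ‘Wakefield’ libraries 59, 60 and 61, and 1134, 1109 and 1148 in ‘Heritage’ libraries 62, 63 and 64. The cultivars did not overlap, and the ‘Heritage’ libraries were close to each other. The ‘Wakefield’ mean of 1960 ± 243 was 1.73-fold the ‘Heritage’ mean of 1131 ± 19.8 (SD, n = 3 each). The log2 difference was -0.79 (standard error 0.12), smaller in size than that of LHCA2, the other photosystem I protein.

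RBCS1A lies at 4736262 bp on LG4 and was measured from far fewer reads than the photosystem genes. Its normalized counts were 213, 191 and 112 in ‘Wakefield’ libraries 59, 60 and 61, and 18.8, 32.7 and 29.5 in ‘Heritage’ libraries 62, 63 and 64. The ‘Heritage’ values rest on 18, 36 and 31 reads. The cultivars did not overlap, and the lowest ‘Wakefield’ library, 61, was still above all ‘Heritage’ libraries. The ‘Wakefield’ mean of 172 ± 53.2 was 6.37-fold the ‘Heritage’ mean of 27.0 ± 7.27 (SD, n = 3 each), a log2 difference of -2.61 (standard error 0.31). Rubisco small subunits are encoded by several near-identical genes in plants, and the sources used here do not say how reads shared among copies were assigned, so the value of this gene model is uncertain as a measure of Rubisco transcripts. The same holds for LHCA2 and GOX1, which also belong to gene families.

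GOX1, at 38933035 bp on LG3, went the other way. Its normalized counts were 1434, 551 and 528 in ‘Wakefield’ libraries 59, 60 and 61, and 7980, 5699 and 5014 in ‘Heritage’ libraries 62, 63 and 64. All ‘Heritage’ libraries were above all ‘Wakefield’ libraries, and library 59 stood above the other ‘Wakefield’ libraries. The ‘Heritage’ mean of 6231 ± 1553 was 7.44-fold the ‘Wakefield’ mean of 838 ± 517 (SD, n = 3 each), with a log2 difference of 3.03 (standard error 0.43). Without library 59 the log2 difference was 3.50. The spread of GOX1 among the ‘Wakefield’ libraries was wide, with an SD of 0.81 on the log2 scale, against a median of 0.15 over the 1189 gene models with a mean normalized count within 2-fold of that of GOX1.

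PEPC4 lies at 4277028 bp on LG4. Normalized counts of PEPC4 were 96.7, 107 and 128 in ‘Wakefield’ libraries 59, 60 and 61, and 10.5, 9.99 and 20.0 in ‘Heritage’ libraries 62, 63 and 64. These came from 103, 69 and 173 reads in ‘Wakefield’ and 10, 11 and 21 reads in ‘Heritage’. Here library 61 was the highest ‘Wakefield’ library, unlike for LHCA2, PSAF, RBCS1A and GOX1, where it was the lowest. The ‘Wakefield’ mean of 111 ± 16.1 was 8.22-fold the ‘Heritage’ mean of 13.5 ± 5.64 (SD, n = 3 each), with no overlap. The log2 difference was -3.01 (standard error 0.28), and -2.38 with a pseudocount of 10 in place of 1.

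**Figure D1:**
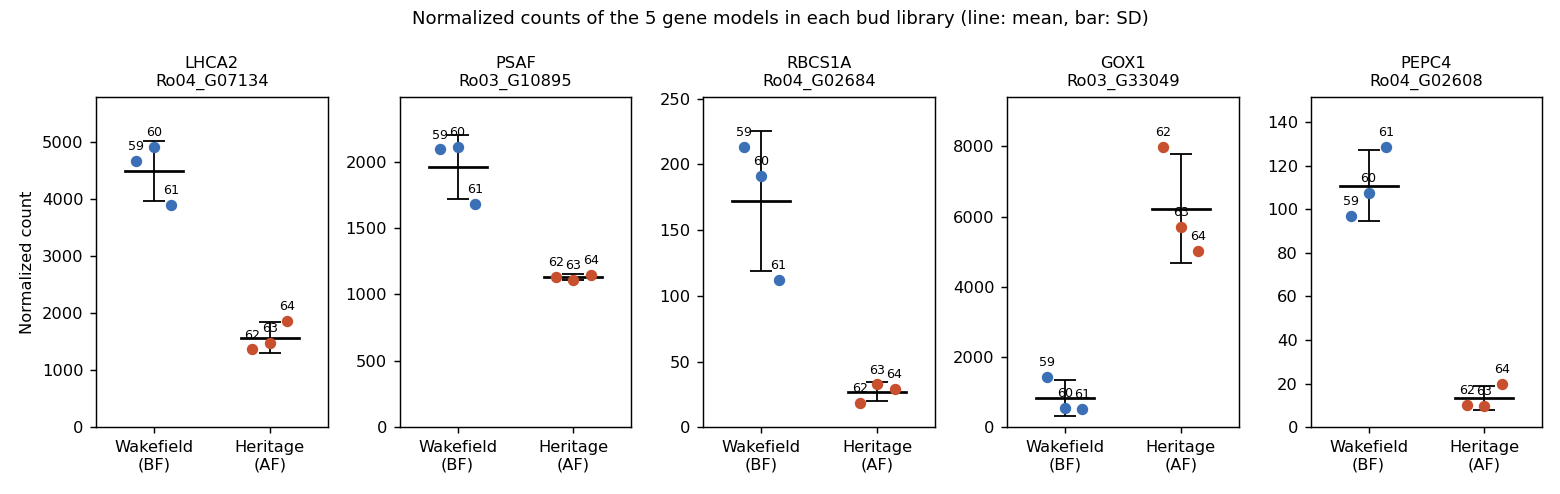
Normalized counts of the 5 gene models (vertical axis, from 0, on a scale of its own in each panel) in the 3 ‘Wakefield’ (BF) and 3 ‘Heritage’ (AF) libraries, each point a library with its number, the line the mean and the bar the SD. The ‘Heritage’ points lie below the ‘Wakefield’ points for LHCA2, PSAF, RBCS1A and PEPC4 and above them for GOX1, where ‘Wakefield’ library 59 is at 1434 and libraries 60 and 61 are at 551 and 528.

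‘Heritage’ was thus below ‘Wakefield’ without overlap for 4 of the 5 gene models and above it for 1. Among the 17898 gene models that reached 10 normalized counts in 3 or more libraries, which included all 5, such separation occurred in 26.2% below and 27.0% above. Since the gene models were chosen by this contrast, nothing is read from their count.

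To place them in their pathways, 34 other genes of photosynthesis, carbon fixation, photorespiration, organic acid metabolism and chloroplast upkeep were taken by Arabidopsis orthologue from the study's table of the mapped intervals on LG3 and LG4, and all 34 passed the filter. With limma on log2(normalized count + 1) and an adjusted p under 0.05, 15 of the 34 were lower in ‘Heritage’, 2 were higher and 17 did not pass. At this threshold 17.5% of all gene models tested were lower and 16.0% were higher, and of the 1859 tested that the interval list holds, 16.2% were lower and 14.3% were higher. The median log2 difference of the 34 genes was -0.55, against 0.01 over all gene models tested. The list was drawn up with earlier results of these data known, so these comparisons with the background are a description only. The number of lower genes was 8 without ‘Heritage’ library 62, 5 without library 63 and 9 without library 64. It was 11 without ‘Wakefield’ library 59 or 60. These were not always among the 15: ECB2 (Ro03_G05750), a gene of chloroplast upkeep, passed as lower only without library 60. The number of higher genes was 1 without library 63 or 64 and otherwise 2, but not always the same genes: pyruvate dehydrogenase E1 beta did not pass without library 62 or 60, where a cytosolic malate dehydrogenase and PEX7, respectively, did.

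Of 8 other genes of the photosynthetic light reactions, 3 were lower in ‘Heritage’ and 5 did not pass, with log2 differences from -0.87 to -0.21. The shares over all gene models tested were 17.5% lower and 26.2% with every ‘Heritage’ library below every ‘Wakefield’ library. LHB1B1 (Ro03_G13424), an antenna protein of photosystem II, had normalized counts of 6209, 8014 and 5046 in ‘Wakefield’ and 2891, 3544 and 3998 in ‘Heritage’ (log2 difference -0.87, standard error 0.21, adjusted p = 0.0258 from limma). PSAK (Ro03_G24832), which lies at the antenna side of photosystem I like its LHCA partners, had 1261, 1263 and 1004 in ‘Wakefield’ and 773, 737 and 795 in ‘Heritage’ (log2 difference -0.61, standard error 0.13, adjusted p = 0.0166 from limma). The cultivars did not overlap for either gene, but LHB1B1 lost its pass in 4 of 6 cases with a single library left out and PSAK in 2 of 6. CYTC6A (Ro03_G10848), a cytochrome-like protein of the thylakoid lumen, had a log2 difference of -0.66 and an adjusted p of 0.0498 from limma, and did not pass with edgeR or DESeq2 on the recovered reads. It lost its pass under 10 of the 14 alternative settings, among them most of those with a single library left out.

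PSBQ (Ro03_G10526), a protein of the oxygen-evolving side of photosystem II, and PSBY (Ro04_G22244), a small photosystem II protein, had log2 differences of -0.54 (adjusted p = 0.0575) and -0.58 (adjusted p = 0.0595) by limma, and both passed with edgeR and DESeq2. ‘Heritage’ lay below ‘Wakefield’ without overlap for both, as in 26.2% of all gene models tested. The photosystem II assembly factor HCF136, the chloroplast ATP synthase subunit ATPC1 and the antenna kinase STN7 overlapped between the cultivars (adjusted p = 0.389, 0.291 and 0.214 by limma). The difference of LHCA2, at -1.52, was larger in size than that of each of these 8 genes, while that of PSAF, at -0.79, lay within their range. Whether LHCA2 differs from them was not tested, since its contrast chose it.

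Of 7 other genes of carbon fixation and its supply, 4 were lower in ‘Heritage’, against 17.5% of all gene models tested, and 3 did not pass. APE2 (Ro03_G06564), the transporter that exports triose phosphate from the chloroplast, had normalized counts of 2780, 2168 and 2060 in ‘Wakefield’ and 1185, 1235 and 1302 in ‘Heritage’ (log2 difference -0.90, standard error 0.14, adjusted p = 0.00718 from limma). The cultivars were well apart, and APE2 passed under all 14 alternatives. A gene model of the Rubisco methyltransferase family (Ro04_G00027, log2 difference -0.91, adjusted p = 0.0308 from limma), the chloroplast carbonic anhydrase CA1 (Ro04_G00322, -0.60, adjusted p = 0.0205) and FTRA2 (Ro04_G23437, -0.61, adjusted p = 0.0248), a subunit of the ferredoxin-thioredoxin reductase that switches carbon fixation enzymes by light, were the others. With single libraries left out, the methyltransferase gene and CA1 lost their pass in 4 of 6 cases each and FTRA2 in 3 of 6.

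The 3 that did not pass included enzymes of the Calvin cycle and of glycolysis in plastids. The plastid phosphoglycerate kinase (Ro03_G15855) had 7632, 7160 and 6788 in ‘Wakefield’ and 6935, 7054 and 6849 in ‘Heritage’, a log2 difference of -0.05 (standard error 0.09, adjusted p = 0.713 from limma). A plastid aldolase (Ro04_G02759) had a log2 difference of 0.23 (adjusted p = 0.356 from limma), and another gene model of the Rubisco methyltransferase family (Ro04_G00270) had -0.06 (adjusted p = 0.644 from limma). All 3 overlapped between the cultivars. RBCS1A did not, but its contrast chose it. The 4 genes that passed did not overlap either, a separation found in this direction in 26.2% of all gene models tested.

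**Figure D2:**
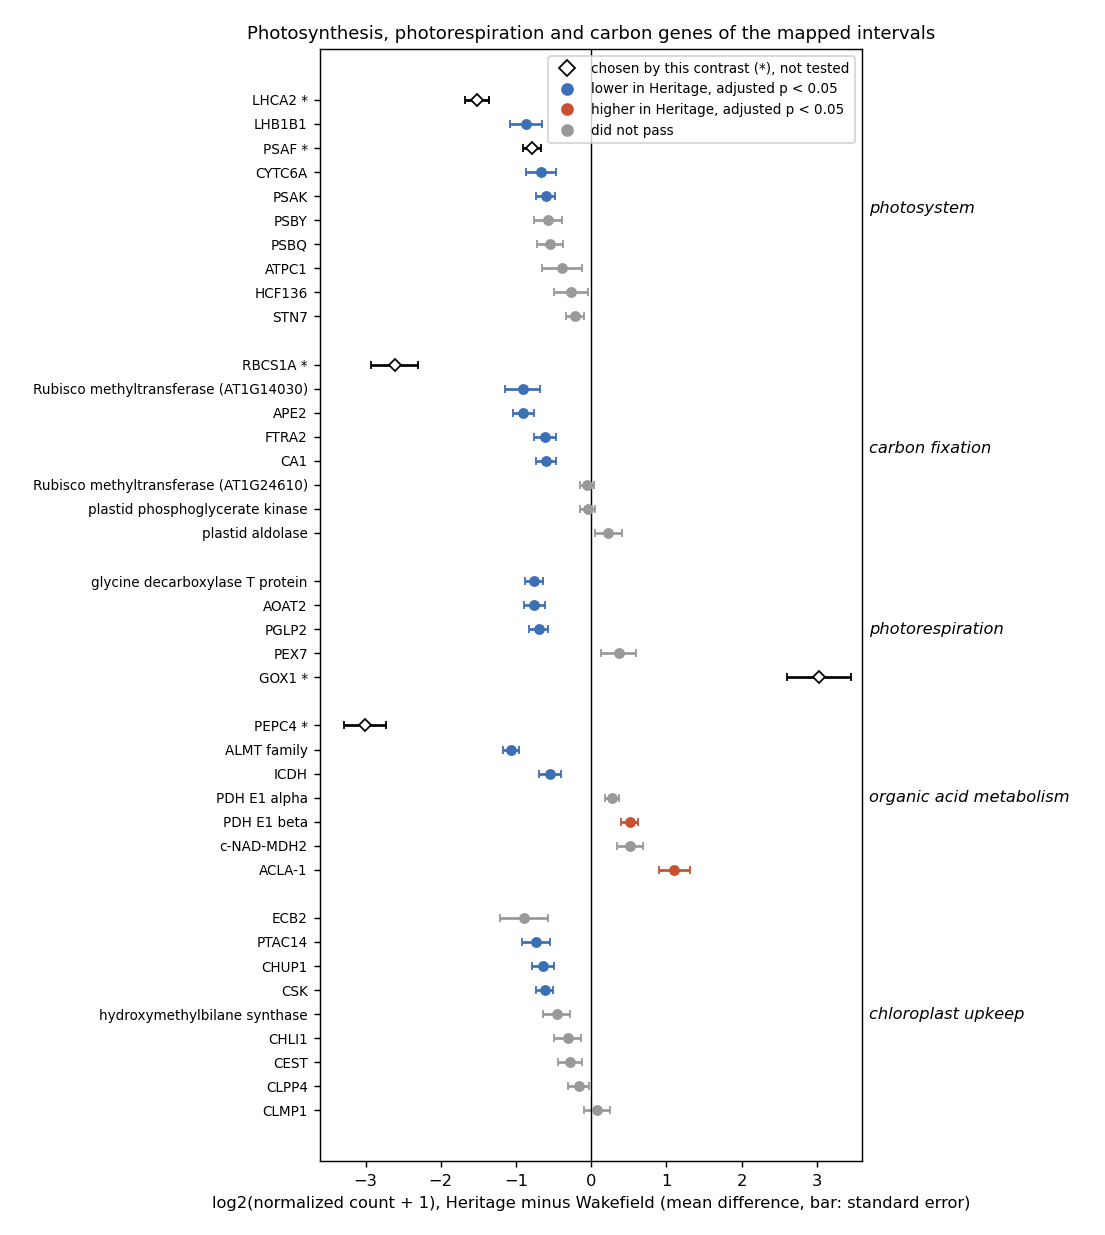
Difference in log2(normalized count + 1) between the 3 ‘Heritage’ and 3 ‘Wakefield’ libraries (horizontal axis, ‘Heritage’ minus ‘Wakefield’, bars the standard error) for the 5 chosen gene models (open diamonds, not tested) and 34 other genes of their pathways (circles). The open diamonds of RBCS1A at -2.61, PEPC4 at -3.01 and GOX1 at 3.03 stand farthest from 0, and 15 of the circles passed on the lower side and 2 on the higher side. The standard errors are the moderated ones from limma.

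Photorespiration and its peroxisome were represented by 4 other genes, of which 3 were lower in ‘Heritage’ and 1 did not pass, whereas GOX1 was higher. Among all gene models tested, 17.5% were lower. PGLP2 (Ro03_G10151), a 2-phosphoglycolate phosphatase whose Arabidopsis orthologue is the cytosolic form, had normalized counts of 688, 820 and 664 in ‘Wakefield’ and 414, 432 and 488 in ‘Heritage’ (log2 difference -0.70, standard error 0.13, adjusted p = 0.0113 from limma). The T protein (Ro03_G13484) of glycine decarboxylase, the mitochondrial complex that as a whole releases CO2 from glycine, had 1834, 1527 and 1551 in ‘Wakefield’ and 888, 997 and 1003 in ‘Heritage’ (log2 difference -0.76, standard error 0.12, adjusted p = 0.00692 from limma). AOAT2 (Ro04_G36246), a peroxisomal aminotransferase that turns glyoxylate, the product of glycolate oxidase, into glycine, had 1524, 1271 and 1115 in ‘Wakefield’ and 735, 804 and 757 in ‘Heritage’ (log2 difference -0.76, standard error 0.14, adjusted p = 0.0116 from limma). None of these 3 overlapped between the cultivars, and 26.2% of all gene models tested were separated in the same direction. Whether their differences differ from that of GOX1 was not tested, since its contrast chose it.

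PEX7 (Ro03_G05253), a receptor for protein import into peroxisomes, had 153, 227 and 120 in ‘Wakefield’ and 212, 194 and 218 in ‘Heritage’, with overlap (log2 difference 0.36, adjusted p = 0.275 from limma). The T protein and AOAT2 passed under all 14 alternatives, and PGLP2 did not pass without ‘Heritage’ library 63. In ‘Wakefield’ library 59, in which GOX1 was 2.72-fold its lowest ‘Wakefield’ value, the T protein and AOAT2 were also at their highest, but the range of these genes within the cultivar was narrow.

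**Figure D3:**
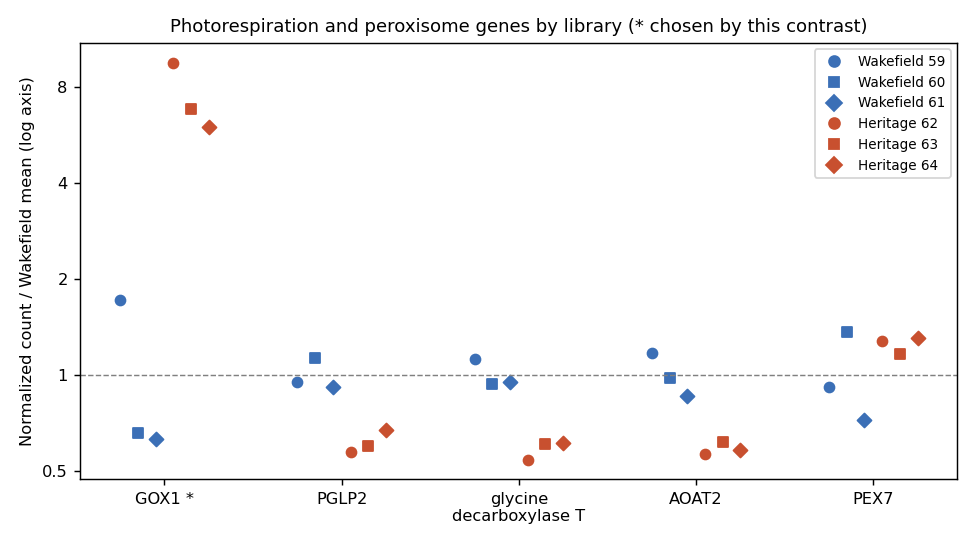
Normalized count of GOX1 and of 4 other photorespiration and peroxisome genes in each library, divided by the mean of the 3 ‘Wakefield’ libraries (vertical log axis; the dashed line is that mean; colours mark the cultivars and shapes the libraries). The ‘Heritage’ points are high above the line for GOX1, whose ‘Heritage’ mean is 7.44-fold the ‘Wakefield’ mean, below it for PGLP2, the glycine decarboxylase T protein and AOAT2, and mixed with the ‘Wakefield’ points for PEX7.

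The 6 other genes of organic acid metabolism went both ways, with 2 lower, 2 higher and 2 that did not pass. Over all gene models tested, 17.5% were lower and 16.0% were higher. A gene model of the aluminium-activated malate transporter (ALMT) family (Ro04_G02655) had normalized counts of 1198, 1334 and 1330 in ‘Wakefield’ and 572, 660 and 608 in ‘Heritage’ (log2 difference -1.07, standard error 0.11, adjusted p = 0.00194 from limma). ACLA-1 (Ro04_G36163), a subunit of the ATP-citrate lyase that makes acetyl-CoA in the cytosol, had 7381, 5282 and 4613 in ‘Wakefield’ and 14049, 11608 and 11042 in ‘Heritage’ (log2 difference 1.11, standard error 0.20, adjusted p = 0.0116 from limma). ALMT and ACLA-1 differed in opposite directions by about the same amount on the log2 scale, and both passed under all 14 alternatives.

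ICDH (Ro03_G05767), an isocitrate dehydrogenase, was lower in ‘Heritage’ (log2 difference -0.55, adjusted p = 0.0316 from limma). A subunit of pyruvate dehydrogenase, E1 beta (Ro04_G23117), was higher (log2 difference 0.51, adjusted p = 0.0185 from limma). The E1 alpha subunit (Ro04_G00387) and a cytosolic malate dehydrogenase (Ro03_G05742), which uses the oxaloacetate that PEP carboxylase makes, had log2 differences of 0.28 (adjusted p = 0.0697) and 0.52 (adjusted p = 0.0597) by limma. E1 alpha passed with edgeR and DESeq2, while the adjusted p of the malate dehydrogenase was 0.15 to 0.308 with these tools. In both genes, every ‘Heritage’ library was above every ‘Wakefield’ library, as in 27.0% of all gene models tested. ICDH and E1 beta each lost their pass when single libraries were left out, ICDH in 5 of 6 cases and E1 beta in 4 of 6.

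Among 9 genes of chloroplast upkeep, 3 were lower in ‘Heritage’, against 17.5% of all gene models tested, and 6 did not pass. These 3 were CHUP1 (Ro03_G05225), which anchors chloroplasts for their movement (log2 difference -0.64, adjusted p = 0.0201 from limma), PTAC14 (Ro03_G05813), a protein of the plastid transcription complex (-0.74, adjusted p = 0.0297), and the chloroplast sensor kinase CSK (Ro04_G24692, -0.62, adjusted p = 0.0107). CSK passed under all 14 alternatives, and CHUP1 and PTAC14 did not pass without library 62, 63 or 64. The chlorophyll pathway genes CHLI1 (Ro03_G05209) and hydroxymethylbilane synthase (Ro04_G12492) had log2 differences of -0.31 (adjusted p = 0.222) and -0.46 (adjusted p = 0.0935) by limma. Neither overlapped between the cultivars, and 26.2% of all gene models tested were separated in this direction. Hydroxymethylbilane synthase passed with edgeR and DESeq2.

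The library with the highest value was also counted for each gene. Within ‘Wakefield’, 22 of the 34 other pathway genes (64.7%) were at their highest in library 59, 11 (32.4%) in library 60 and 1 (2.9%) in library 61. Among all 17898 gene models tested the shares were 36.1%, 32.0% and 31.9%. Within ‘Heritage’ the shares for the 34 genes were 26.5%, 35.3% and 38.2% in libraries 62, 63 and 64, against 42.2%, 23.2% and 34.6% among all gene models tested. Leaving out library 59 gave the same number of lower genes, 11 of 34, as leaving out library 60, and leaving out any of the ‘Heritage’ libraries gave fewer. LHCA2 and PSAF were highest in library 60 and RBCS1A and GOX1 in library 59.

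The gene models listed on either side of each of the 5 were measured too. Beside LHCA2, Ro04_G07135 and Ro04_G07133 had log2 differences of 0.00 and 0.43 (adjusted p = 0.987 and 0.387 from limma). Beside PSAF, Ro03_G10894 (an LBD4 orthologue) and Ro03_G32983 had -0.15 and 0.12 (adjusted p = 0.298 and 0.405 from limma). None of these 4 neighbours passed the test.

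Beside RBCS1A, the gene model listed 1712 bp away, Ro04_G02685, which has no assigned orthologue, had normalized counts of 8.45, 10.9 and 6.68 in ‘Wakefield’ and 39.8, 42.7 and 31.4 in ‘Heritage’. It was higher in ‘Heritage’ (log2 difference 2.02, standard error 0.20, adjusted p = 0.00196 from limma), opposite in direction to RBCS1A. Its ‘Wakefield’ values rest on 9, 7 and 9 reads, which limits the precision of this difference. Those of 8.45 and 6.68 lie below the filter of 10, which Ro04_G02685 met through its ‘Heritage’ libraries. Its adjusted p is therefore a description only. The neighbour on the other side of RBCS1A, Ro04_G02683, had a log2 difference of -0.19 (adjusted p = 0.346 from limma). Beside GOX1, Ro03_G17443, an orthologue of the brassinosteroid receptor BRI1 listed 3974 bp away, was also higher in ‘Heritage’, with 23.5, 15.6 and 25.2 in ‘Wakefield’ and 56.5, 54.5 and 52.4 in ‘Heritage’ (log2 difference 1.33, standard error 0.19, adjusted p = 0.00540 from limma). The neighbour on the other side of GOX1, the JAZ8 orthologue Ro03_G17441, had 0.08 (adjusted p = 0.830 from limma).

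Beside PEPC4, the nudix hydrolase 1 orthologue Ro04_G36199, listed 9616 bp away, was lower in ‘Heritage’ too (log2 difference -0.60, standard error 0.14, adjusted p = 0.0215 from limma), by less than PEPC4 itself. On the other side an ABC-2 type transporter, Ro04_G02607, had 181, 306 and 525 in ‘Wakefield’ and 606, 558 and 546 in ‘Heritage’, a log2 difference of 0.88 (adjusted p = 0.117 from limma). Of the 10 neighbours, 2 were higher, 1 was lower and 7 did not pass, against 16.0% higher and 17.5% lower among all gene models tested, so the count of neighbours is not a result about them. The library kit marks strand, and whether counting made use of this is not stated, so reads of overlapping or antisense gene models may not have been told apart.

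**Figure D4:**
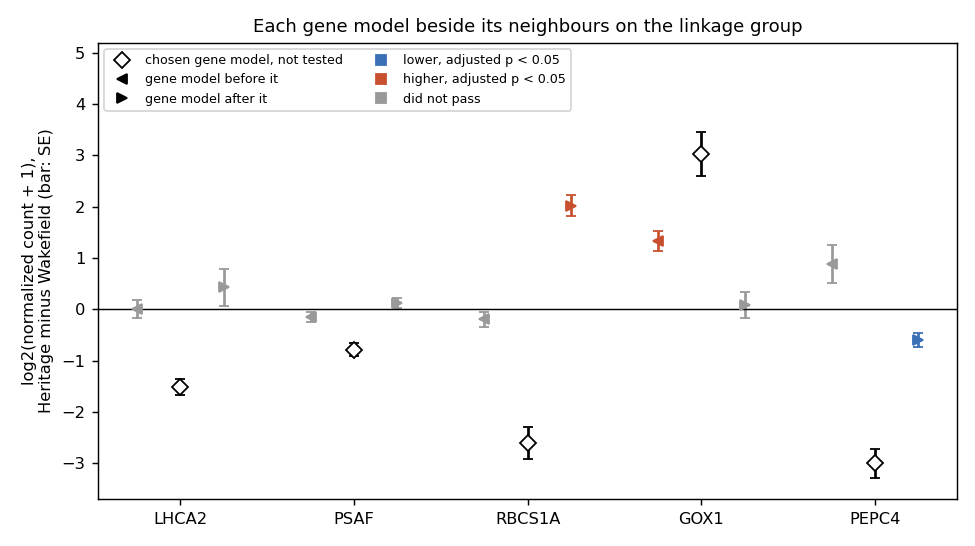
Difference in log2(normalized count + 1), ‘Heritage’ minus ‘Wakefield’ (vertical axis, bars the standard error), of each of the 5 gene models (open diamonds, not tested) and of the gene model listed before and after it on the linkage group (triangles; colour marks a pass in limma). The neighbours of LHCA2 lie at 0.00 and 0.43, those of PSAF at -0.15 and 0.12, the one before PEPC4 at 0.88, the one after RBCS1A at 2.02, the one before GOX1 at 1.33 and the one after PEPC4 at -0.60. The standard errors are the moderated ones from limma.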

How the data were processed

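The deposited table holds a signal value per gene model and library, which the authors made by filtering reads with Trimmomatic and SortMeRNA, aligning the rest by STAR to R. occidentalis reference models and dividing counts by DESeq2 size factors. The sources used here name neither tool versions nor the counting program. The table also holds the authors' own fold changes and p-values, which were not used. Values were whole multiples of the worth of 1 read for 100.0% of gene models in each library (tolerance 0.001 of a read), so reads could be recovered.

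Values were compared with limma 3.58.1 (R 4.3.3) on log2(value + 1), keeping 17898 gene models with at least 10 in at least 3 libraries, with Benjamini-Hochberg adjustment over all of them. The pseudocount understates differences of low genes. Alternatives were pseudocounts of 0.1 and 10, no filter, a filter of 50, upper quartile scaling, edgeR 4.0.16 (RLE or TMM) and DESeq2 1.42.0 on the recovered reads, and each library left out. At the same threshold edgeR with TMM called 3503 gene models lower and 3183 higher, and limma 3127 and 2867. The tests were tried on simulated counts first. The 34 other genes were taken by orthologue from the first 1998 lines of the study's interval table, of which 1785 have an orthologue, and they cover the intervals only. Positions are as listed there. The members and lists were chosen with earlier results of these data known. Named by rule are the 5 gene models, the list genes that passed or whose group is described, the gene model on each side of the 5, and for each of the 5 the 2 gene models with an orthologue most like it. Python 3.11.15 was used for tables.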

Additional observations from a re-analysis of the deposited data

How the results depend on the processing

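The 5 gene models kept their direction under all 14 alternatives, and 69 of 70 values moved by less than 1 SD between replicates. The exception was PEPC4, at -2.38 with a pseudocount of 10. Of 474 comparisons over the 34 other genes, 43 lost a pass, 38 of them with a library left out, 23 gained one, and 1 changed direction (CLMP1, which did not pass, 0.08 with all libraries and -0.045 to 0.20 with 1 left out, below 0 without ‘Wakefield’ library 60). With a library left out, the other pathway genes numbered 5 to 15 lower and 1 to 2 higher, and all gene models 1709 to 2768 lower and 1087 to 2764 higher. Each of these fits also had fewer libraries, and the cause of the changes was not tested. Without a library left out, 14 to 17 were lower and 2 to 3 were higher. RBCS1A and PEPC4 rest on 10 to 36 reads per ‘Heritage’ library, which limits the precision of their fold differences.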

Other observations

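The gene models whose values were most like each of the 5, by Pearson's r of log2(normalized count + 1) over the 6 libraries, were sought among the annotated gene models of the interval table that passed the filter. The 6 libraries form 2 cultivars, so r mostly reflects the difference between them, and no test was made. For PSAF the most like was PSAK (r = 0.995), another photosystem I subunit, followed by the TDP1 orthologue Ro03_G10548 (r = 0.994), a DNA repair enzyme. For LHCA2 they were the galacturonosyltransferase-like 7 gene model Ro04_G36195 (r = 0.999) and the alpha-amylase-like 3 gene model Ro04_G00117 (r = 0.998), whose Arabidopsis orthologue degrades starch in the chloroplast. The amylase gene had normalized counts of 1553, 1642 and 1463 in ‘Wakefield’ and 902, 978 and 1067 in ‘Heritage’ (log2 difference -0.66, adjusted p = 0.00820 from limma).

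For GOX1 the most like was Ro03_G13489 (orthologue AT2G41380, r = 0.9997), with normalized counts of 439, 185 and 183 in ‘Wakefield’ libraries 59, 60 and 61 and 2332, 1680 and 1545 in ‘Heritage’ libraries 62, 63 and 64. It was raised in ‘Wakefield’ library 59 over libraries 60 and 61 as GOX1 was, and lies on LG3 at 42776636 bp, far from GOX1. The sterol acyltransferase ASAT1 (Ro03_G10209, r = 0.999) came next, with a smaller log2 difference of 0.72. For RBCS1A they were the XRCC2 homologue Ro04_G12525 (r = 0.990) and the transporter ABCB9 (Ro03_G33071, r = 0.986), and for PEPC4 an alpha/beta-hydrolase (Ro04_G36219, r = 0.997) and a WD40 repeat gene model (Ro04_G00182, r = 0.996).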
